A study of Mus musculus with 19 samples.

Results

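The 9 genes described here, Grp, Ephb2, Tmeff2, Car14, Galnt15, Matn2, Cpne5, Rasa4 and Lars2, were selected on measured values, as some of the deepest falls with dose in the lungs of mice dosed with benzo(a)pyrene (BaP), a polycyclic hydrocarbon of smoke and soot. They are 9 of the 19315 genes tested. The values that chose them are the log2 ratios of lung over reference compared between dosed and control mice, so their differences from control are given as a description, with no test. Male mice of the MutaTMMouse line (transgenic strain 40.6, aged 25 weeks, carrying a bacterial reporter used to score mutations) received BaP or vehicle by gavage every day for 28 days, and a piece of lung was collected 3 days later. There were 5 vehicle controls and 3 dosed groups, called the low dose (25 mg/kg/day, 5 mice), the middle dose (50 mg/kg/day, 4 mice of the 5 named in the design text) and the high dose (75 mg/kg/day, 5 mice). One array was run per mouse. Its lung RNA carried Cy5 and a commercial RNA pooled from 11 mouse cell lines carried Cy3 on every array, so dyes were never swapped and every group shares the transgene, the sex, the age and the gavage. The series addressed how oral BaP alters pulmonary gene expression over a range of doses.

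BaP is taken up by cells, binds the aryl hydrocarbon receptor and is oxidised to metabolites that attach to DNA. The 9 genes belong to no single pathway. Grp encodes a peptide ligand and Ephb2 and Tmeff2 proteins of the cell surface. Car14 and Galnt15 encode enzymes of the surface membrane and the Golgi, Matn2 a protein of the extracellular matrix, and Cpne5 and Rasa4 cytosolic proteins that bind membranes. Lars2 encodes an enzyme of mitochondrial translation.

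Between 19777 and 27279 of the 43379 spots that were not controls stood well above background in each array's lung channel, and 0 spots were saturated. Pairs of arrays correlated at 0.868 to 0.98 over the genes tested. Each array lay on 1 of 6 slides scanned on 5 days, every slide held more than 1 group, and the quality report in the file headers asked for a second look at 4 arrays (controls 1 and 3, and mice 12 and 20). Because RNA came from whole pieces of lung, fewer cells of a type and less RNA per cell cannot be told apart for any gene below.

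RefSeq's table of promoters (GRCm38.p6) held 7 of the 9 genes: Ephb2, Tmeff2, Car14, Galnt15, Cpne5, Rasa4 and Lars2. The 250 bases before the annotated start are shown for the 2 genes with the largest differences at the high dose among these 7, Galnt15 (chr14:32028853-32029102, plus strand) and Car14 (chr3:95904686-95904935, minus strand), and for the 2 with the most matches to the core motif of the aryl hydrocarbon receptor, Ephb2 (chr4:136836013-136836262, minus strand) and Cpne5 (chr17:29237791-29238040, minus strand). Each is written 5′ to 3′ on the strand of its gene, with matches to GCGTG on either strand in capitals.
Galnt15: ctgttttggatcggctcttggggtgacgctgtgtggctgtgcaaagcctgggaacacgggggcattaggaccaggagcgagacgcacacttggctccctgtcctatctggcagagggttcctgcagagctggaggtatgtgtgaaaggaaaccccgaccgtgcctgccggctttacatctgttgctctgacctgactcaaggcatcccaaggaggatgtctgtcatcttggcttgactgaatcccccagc
Car14: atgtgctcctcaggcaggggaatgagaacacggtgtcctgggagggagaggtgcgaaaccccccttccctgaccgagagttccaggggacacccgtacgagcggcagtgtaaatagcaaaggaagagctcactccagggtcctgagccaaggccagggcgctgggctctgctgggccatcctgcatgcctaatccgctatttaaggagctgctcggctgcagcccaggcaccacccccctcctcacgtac
Ephb2: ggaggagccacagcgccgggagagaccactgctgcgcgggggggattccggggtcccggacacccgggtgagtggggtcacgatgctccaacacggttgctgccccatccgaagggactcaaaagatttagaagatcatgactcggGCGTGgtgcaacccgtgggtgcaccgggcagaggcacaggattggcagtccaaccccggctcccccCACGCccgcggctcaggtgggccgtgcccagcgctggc
Cpne5: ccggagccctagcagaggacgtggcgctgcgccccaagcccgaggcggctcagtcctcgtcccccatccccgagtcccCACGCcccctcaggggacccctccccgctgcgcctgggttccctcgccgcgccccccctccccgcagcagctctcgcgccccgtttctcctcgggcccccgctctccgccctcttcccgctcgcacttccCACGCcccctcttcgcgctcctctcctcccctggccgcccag
The motif GCGTG, searched on both strands, had 2 matches before Ephb2, 2 before Cpne5, 1 before Rasa4 and 0 before Tmeff2, Car14, Galnt15 and Lars2. Thus 3 of 7 windows held it, against 28.2% of all 27025 windows of the same length. GGGCGG, the GC box, was in 4 of 7 windows (2 matches each before Tmeff2, Cpne5, Rasa4 and Lars2), against 32.9% of all. TATAAA was in 0 of 7, against 13% of all, and the p53 half-site was in 1 of 7 (Tmeff2), against 7.18% of all. None of the matches to GCGTG in the 7 windows overlapped a match to another motif. These matches are letters in a window and were not measured as binding.

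At the high dose all 9 genes were lower than in controls, with a median log2 difference of -0.97 against -0.01 over all genes tested. All 9 passed the threshold of the fit over all genes (adjusted p of 0.05, lower) there, where 1.51% of all genes did so. At the middle dose 7 of 9 passed it (all but Galnt15 and Lars2), against 0.337% of all genes, with a median difference of -0.63. At the low dose 2 of 9 passed it (Ephb2 and Matn2), against 0.0104% of all genes, with a median of -0.30. These calls were easily lost: with 1 mouse left out in turn, 0 to 2 genes passed at the low dose (0 in 10 of 19 cases), 2 to 7 at the middle dose and 7 to 9 at the high dose. Over the 12 other settings 0 to 2 passed at the low dose, 0 to 7 at the middle dose and 0 to 9 at the high dose, with the 0 at the middle and high dose under median centring. Of all genes, 0 to 2, 22 to 74 and 137 to 369 passed as lower at these doses with 1 mouse left out. Over the settings 0 to 3, 0 to 186 and 3 to 780 of all genes did so. Nothing is read from these counts, since the same contrasts chose the genes. In either direction, 0.0518%, 1.08% and 4.14% of all genes passed at the low, middle and high dose. In a fit with dose as a number all 9 genes passed as falling, against 1.83% of all genes. In these ratios after loess, every dosed mouse lay below every control for 2 genes at the low dose (0.456% of all genes), for 8 genes at the middle dose (1.96% of all) and for 8 genes at the high dose (1.66% of all). In the order of all genes by difference at the high dose, Galnt15 was at place 50 from the lowest, Car14 at 51, Tmeff2 at 67, Grp at 72, Lars2 at 98, Matn2 at 122, Rasa4 at 168, Cpne5 at 201 and Ephb2 at 388. Gpihbp1 (-1.42), which holds lipoprotein lipase on capillaries, and Ednrb (-1.24), a receptor for endothelins, lay below Galnt15 among the genes with a symbol past the threshold.

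**Figure D1:**
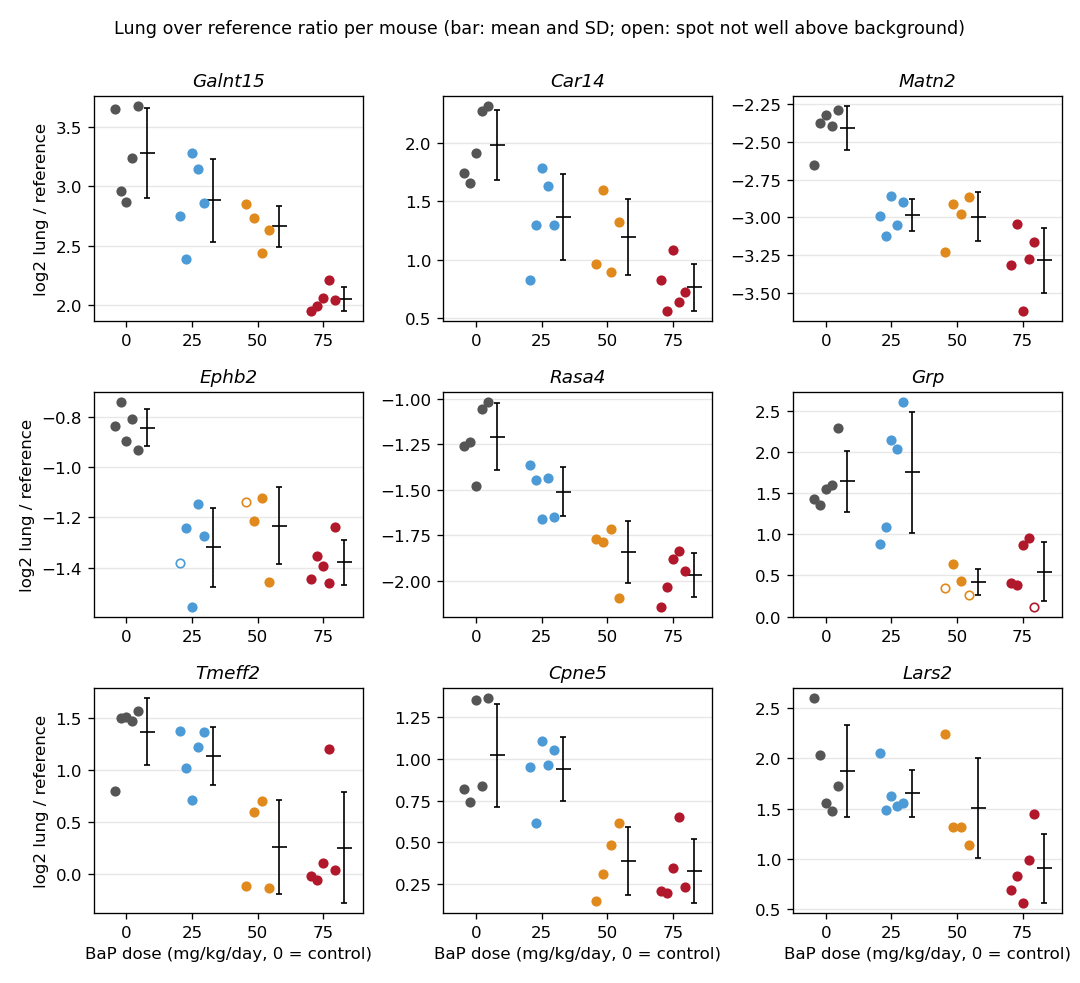
Log2 ratio of lung over reference for each mouse (vertical axes, which differ between genes) by BaP dose in mg/kg/day (horizontal axis, 0 is control), 1 panel per gene. Points are mice, open points are lung spots not well above background, and bars are the mean and SD. Galnt15 at the high dose lies between 1.95 and 2.21, below all controls, and the 1 high Tmeff2 mouse at that dose stands at 1.20.

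Grp encodes gastrin-releasing peptide, which in the lung is made mainly by neuroendocrine cells of the airway. Its log2 ratio was 1.43, 1.35, 1.55, 1.60 and 2.29 in controls 1 to 5 and 0.88, 1.09, 2.15, 2.04 and 2.61 in mice 6 to 10 at the low dose. It was 0.35, 0.63, 0.43 and 0.27 in mice 12 to 15 at the middle dose and 0.41, 0.38, 0.87, 0.96 and 0.12 in mice 16 to 20 at the high dose. The mice at the low dose spanned the widest range and overlapped the controls, while all mice at the higher doses lay below all controls. The difference was 0.11 ± 0.27 at the low dose, -1.22 ± 0.29 at the middle dose and -1.10 ± 0.27 at the high dose (log2, SE). The spot was dim, at 4 to 267 intensity units above local background over the arrays, and it was not well above background in 2 of 4 mice at the middle dose and 1 of 5 at the high dose. In the reference channel it was not well above background on any of the 19 arrays (5 to 13 units), whereas the other 8 genes were on all 19, so the level of the Grp ratio is a bound set by background and offset. With Feature Extraction's processed signals, which carry no added offset, the computed difference was -2.85 at the middle dose and -2.83 at the high dose. These values rest on the same spots near background and give no exact size. Of the other genes of the bombesin-like peptide system only Nmb, a related ligand, could be tested, at -0.05 at the high dose (adjusted p = 0.919). Of 14 other neuroendocrine genes tested at that dose, 1 rose (Ddc, an enzyme of amine synthesis, at 0.58, adjusted p = 0.0358) and 1 fell (Ncam1, an adhesion molecule, at -0.45, adjusted p = 0.0338), and their median was -0.08. The mean of these 14 genes in each mouse, set against the control mean, ran from -0.20 to 0.07 at the high dose and from -0.13 to 0.13 in controls. Within dose groups its relation to Grp did not pass (r = 0.46, permutation p = 0.0943, rho = 0.46, permutation p = 0.0965, both over 19 mice, adjusted p = 0.538 and 0.507, r = 0.67 without the 2 farthest mice).

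Ephb2, a receptor tyrosine kinase that binds B-type ephrins on neighbouring cells, was lower at every dose by a similar amount. Its log2 ratio was -0.83, -0.74, -0.90, -0.81 and -0.93 in controls and -1.38, -1.24, -1.56, -1.15 and -1.27 at the low dose. It was -1.14, -1.21, -1.12 and -1.46 at the middle dose and -1.45, -1.35, -1.40, -1.46 and -1.24 at the high dose. After loess no dosed mouse at any dose reached the lowest control, and the 3 doses overlapped each other. The difference was -0.48 ± 0.08 at the low dose, -0.39 ± 0.09 at the middle dose and -0.54 ± 0.08 at the high dose, the smallest of the 9 genes at the top dose. The spot was not well above background in 1 of 5 mice at the low dose and 1 of 4 at the middle dose. Of 14 other Eph receptors and ephrins tested, 0 fell and 2 rose at the high dose by the limma fit: Epha4 (2.58 at the high dose against 1.75 in controls, adjusted p = 0.0011) and Epha2 (0.78 against 0.08, adjusted p = 0.00102). Both belong to the A class of Eph receptors. The median of the 14 was -0.01.

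Tmeff2 encodes a membrane protein with follistatin-like domains. Its log2 ratio was 0.79, 1.5, 1.51, 1.47 and 1.57 in controls and 1.37, 1.02, 0.71, 1.22 and 1.36 at the low dose. It was -0.12, 0.59, 0.70 and -0.14 at the middle dose and -0.02, -0.06, 0.11, 1.20 and 0.04 at the high dose. Control 1 was low and mouse 19 at the high dose was high, so the groups overlapped at that dose, whereas all 4 mice at the middle dose lay below all controls. The difference was -0.23 ± 0.23 at the low dose, -1.11 ± 0.25 at the middle dose and -1.11 ± 0.23 at the high dose. A further probe for Tmeff2, well above background on all 19 arrays, gave -0.10, -0.69 and -0.90 at the low, middle and high dose. Within dose groups the 2 probes moved together over the 19 mice (of deviations from group means, Pearson's r = 0.909 with permutation p = 1e-05, the smallest that 100000 resamples can give, and Spearman's rho = 0.904 with permutation p = 3e-05), and r was 0.822 without the 2 mice farthest from the median. Of 12 other genes of follistatin-domain proteins tested, 0 passed the threshold in either direction at any dose by limma (3 had an unadjusted p under 0.05 at the high dose), and their median at the high dose was 0.04.

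Car14 encodes a carbonic anhydrase anchored in the cell membrane, which interconverts carbon dioxide and bicarbonate outside the cell. Its log2 ratio was 1.74, 1.66, 1.91, 2.28 and 2.32 in controls and 0.82, 1.29, 1.78, 1.63 and 1.30 at the low dose. It was 0.96, 1.60, 0.89 and 1.33 at the middle dose and 0.82, 0.56, 1.08, 0.63 and 0.72 at the high dose. One mouse at the low dose lay among the controls, and no mouse at the higher doses did. The difference was -0.61 ± 0.18 at the low dose, -0.79 ± 0.19 at the middle dose and -1.22 ± 0.18 at the high dose, which is a ratio 2.33-fold lower at the top dose. Of 11 other carbonic anhydrases tested, 0 passed the threshold at the high dose by limma (3 had an unadjusted p under 0.05), and their median was -0.02. Car4, an enzyme of alveolar capillaries named here after its values were seen, rose at the middle dose (0.66, adjusted p = 0.0372) and did not pass at the low dose (0.37, adjusted p = 0.52) or the high dose (0.45, adjusted p = 0.0744).

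Galnt15 encodes a Golgi enzyme of the family that starts mucin-type O-glycosylation by adding N-acetylgalactosamine to proteins. Its log2 ratio was 3.65, 2.96, 2.87, 3.23 and 3.67 in controls and 2.75, 2.39, 3.28, 3.14 and 2.85 at the low dose. It was 2.85, 2.73, 2.44 and 2.63 at the middle dose and 1.95, 1.99, 2.06, 2.21 and 2.05 at the high dose. The 5 mice at the top dose lay close together (SD of 0.10 against 0.38 in controls) and below every other mouse. The difference was -0.39 ± 0.16 at the low dose, -0.61 ± 0.17 at the middle dose and -1.22 ± 0.16 at the high dose. Of 11 other GalNAc transferases tested, 0 fell and 1 rose at the high dose: Galnt1, at 0.58 against -0.03 in controls, a difference of 0.61 ± 0.08 (limma adjusted p = 6.42e-05). Galnt1 had also risen at the middle dose (0.55, adjusted p = 0.00137). The median of the 11 was 0.06.

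Matn2 encodes a matrilin, a protein that links other components of the extracellular matrix. Its log2 ratio was -2.65, -2.37, -2.32, -2.39 and -2.29 in controls and -2.99, -3.12, -2.86, -3.05 and -2.90 at the low dose. It was -3.23, -2.91, -2.98 and -2.87 at the middle dose and -3.31, -3.04, -3.62, -3.28 and -3.16 at the high dose. After loess all dosed mice lay below all controls. The difference was -0.58 ± 0.10 at the low dose, -0.59 ± 0.11 at the middle dose and -0.88 ± 0.10 at the high dose. With ratios centred on each array's median the groups overlapped, at -3.68 to -3.25 at the high dose and -3.83 to -2.43 in controls. Of 18 other genes of matrilins and the pericellular matrix tested, 0 rose and 3 fell at the high dose, with a median of -0.09. The 2 largest of these falls were Thbs3, a thrombospondin (-0.49, adjusted p = 0.0496), and Fbln2, a fibulin (-0.42, adjusted p = 0.0364).

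Cpne5 encodes a copine, a protein that binds phospholipids when calcium is present, and Rasa4 a GTPase-activating protein that switches Ras off. Cpne5 ran from 0.74 to 1.36 in controls, from 0.62 to 1.11 at the low dose, from 0.15 to 0.61 at the middle dose and from 0.20 to 0.65 at the high dose. Its difference was -0.08 ± 0.14, -0.63 ± 0.15 and -0.70 ± 0.14 from the lowest to the highest dose, with overlap with controls at the low dose only. Another probe for Cpne5, well above background on 9 arrays, gave 0.01, -0.12 and -0.16 at the same doses. Rasa4 ran from -1.48 to -1.02 in controls, from -1.66 to -1.36 at the low dose, from -2.09 to -1.72 at the middle dose and from -2.14 to -1.84 at the high dose. Its difference was -0.30 ± 0.10, -0.63 ± 0.10 and -0.76 ± 0.10. Among 6 other copines tested, 0 passed the threshold at the high dose by limma (0 had an unadjusted p under 0.05). Among 9 other genes of Ras GTPase-activating proteins and of the related IQGAP proteins 1 fell there (Rasa2, -0.34, adjusted p = 0.0187).

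The genes differed in the doses between which their ratios stepped down, given here with no test. Grp, Tmeff2 and Cpne5 had their step between the low and the middle dose (-1.33, -0.87 and -0.55) and little beyond it (0.13, -0.01 and -0.06 between the middle and the high dose). Ephb2, Matn2 and Car14 had their largest step between control and the low dose (-0.48, -0.58 and -0.61). Galnt15 and Lars2 had theirs between the middle and the high dose (-0.61 and -0.60). Rasa4 stepped by -0.30, -0.33 and -0.13. These steps are those of ratios after loess. With ratios centred on each array's median, Lars2 differed from control by 0.14, 0.04 and 0.12 from the lowest to the highest dose. Matn2 then differed by -0.31, -0.32 and -0.28, and Galnt15 by -0.16, -0.37 and -0.71. The median of all genes was then 0.15, 0.14 and 0.35. Grp was not well above background in 2 of 4 mice at the middle dose and 1 of 5 at the high dose, which bounds its last step.

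**Figure D2:**
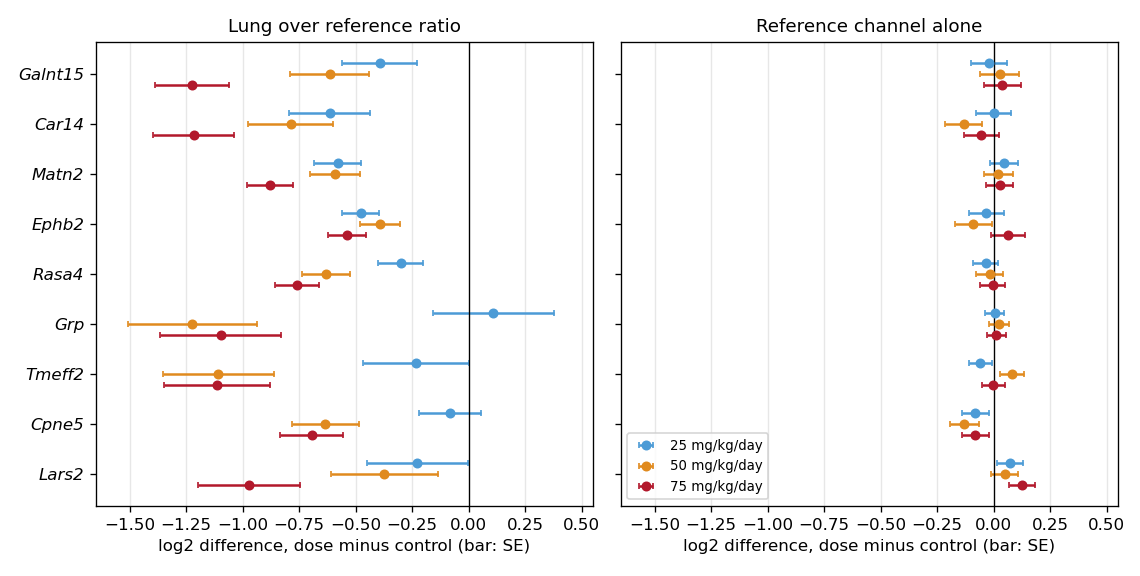
Log2 difference from control (horizontal axes) at 3 BaP doses for each gene (rows), as the ratio of lung over reference on the left and as the reference channel alone on the right. Points are fitted differences and bars their SE. The ratios at the high dose lie between -1.22 and -0.54, and the reference channel between -0.13 and 0.12 at all doses.

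The reference RNA was the same on every array. Its channel is the denominator of the ratios that chose the genes and so is not independent of the choice, and it is described here beside the lung channel. Each channel alone was quantile normalized between arrays and the ratios by loess, so the 2 channels need not add up to the ratio. At the high dose the Lars2 ratio was -0.97, with -0.14 in the lung and 0.12 in the reference channel. The Galnt15 ratio was -1.22, with -1.23 in the lung and 0.04 in the reference channel. Among all genes, 0 passed the threshold in the reference channel at the low dose, 0 at the middle dose and 6 at the high dose (0.0311%) by limma, with 390, 546 and 737 at an unadjusted p under 0.05. A fit that blocked on slide gave 0, 0 and 59. None of the 9 genes passed at any dose in either fit, with a lowest adjusted p of 0.998, or 0.448 with the slide block (Lars2 at the high dose). The largest positive difference was that of Lars2 at the high dose, at 17.68 against 17.55 in controls, 0.12 ± 0.06 (SE). In the lung channel alone, quantile normalized between arrays, the difference at the high dose was -1.27 for Car14, -1.23 for Galnt15, -1.15 for Grp, -1.08 for Tmeff2, -0.76 for Cpne5, -0.68 for Rasa4, -0.62 for Matn2, -0.27 for Ephb2 and -0.14 for Lars2. Within slides that held both a mouse at the high dose and a control, the dosed mouse was lower on 4 of 4 slides for every one of the 9 genes, and at the middle dose on 3 of 3. At the low dose it was lower on 4 of 4 slides for Car14, Ephb2, Galnt15, Matn2 and Rasa4, on 3 for Tmeff2 and on 2 for Cpne5, Grp and Lars2. The slide counts use the same ratios and mice that chose the genes, so nothing is read from them. The share over all genes was not computed.

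Lars2, the mitochondrial leucyl-tRNA synthetase, had a value whose sign at the high dose depended on how the arrays were normalized. The sizes of the other 8 differences depended on it too, as given below. Its log2 ratio after loess was 2.60, 2.04, 1.55, 1.47 and 1.73 in controls and 2.06, 1.49, 1.63, 1.53 and 1.56 at the low dose. It was 2.24, 1.32, 1.32 and 1.14 at the middle dose and 0.69, 0.83, 0.57, 0.99 and 1.45 at the high dose. The mice at the high dose lay below all controls, and those at the lower doses overlapped them. The difference was -0.23 ± 0.22, -0.37 ± 0.24 and -0.97 ± 0.22 from the lowest to the highest dose. Its spot was among the brightest of every array: 1 to 3 of the 43379 spots had a higher mean intensity over both channels, while for each of the other 8 genes at least 4622 did. Whether so bright a spot measured Lars2 RNA alone was not tested. Loess fits a curve of the ratio on brightness and subtracts it, and at the Lars2 spot it subtracted -0.998 ± 0.64 at the high dose and -2.09 ± 0.97 in controls (SD, n = 5 each). The lung signal itself, above local background and before any normalization, was 154500 to 247029 with a median of 165204 at the high dose, against 121386 to 244648 with a median of 153796 in controls. Those ranges overlapped, and so did the reference signals, with medians of 192373 at the high dose and 198832 in controls. With each array's ratios centred on their median in place of loess, the Lars2 difference at the high dose was 0.12. It was -0.37 with Feature Extraction's processed signals, -0.39 from the authors' deposited table and -0.14 in the lung channel alone, where quantile normalization gives so bright a spot a value set by its rank. Of 15 other mitochondrial aminoacyl-tRNA synthetases tested, 0 passed the threshold at any dose by limma (2 had an unadjusted p under 0.05 at the high dose), and their median at the high dose was -0.01.

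**Figure D3:**
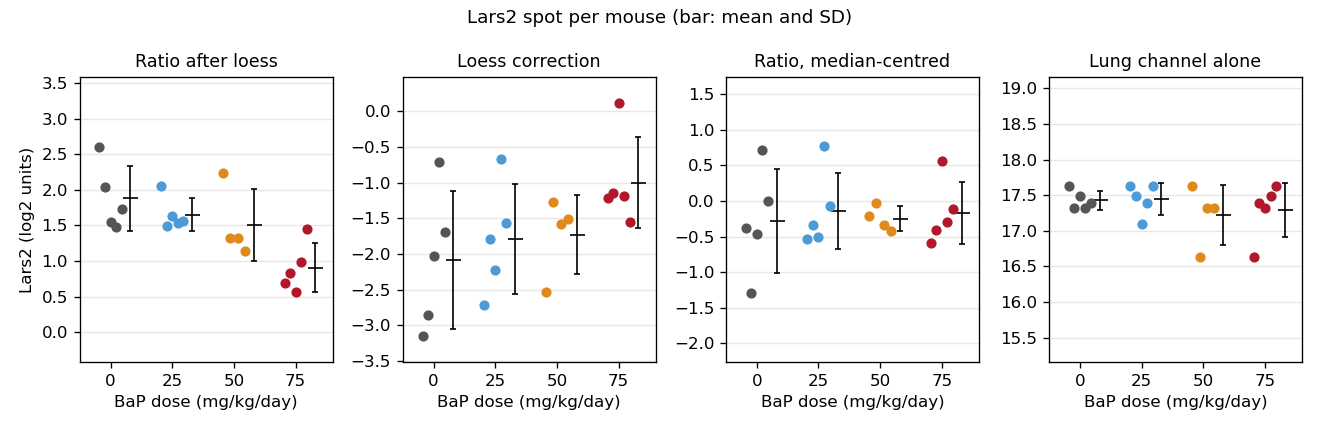
Lars2 in each mouse (points) by BaP dose, in log2 units, with the mean and SD as bars, over axes of equal span. From left to right are the ratio after loess, the amount loess subtracted, the ratio centred on each array's median and the lung channel alone. The ratio after loess is lowest at the high dose, the amount subtracted is highest there (mean of -0.998 against -2.09 in controls), and the median-centred ratio overlaps across all groups.

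The other 8 genes were lower than controls at the high dose under all 31 alternatives tried (12 settings and 19 left-out mice). The same contrast chose the genes, so nothing is read from the kept sign. The settings describe how the size varied. The amount loess subtracted was higher at the high dose than in controls for each of these genes. It was higher by 0.62 for Rasa4, 0.60 for Matn2, 0.51 for Cpne5 and 0.51 for Galnt15. For Tmeff2 it was higher by 0.42, for Car14 and Ephb2 by 0.38 and for Grp by 0.17. Median centring, under which the median of all genes moved to 0.35, gave the smallest differences, from -0.93 for Grp to -0.14 for Rasa4. Relative to that median the difference was -1.28 for Grp, -1.19 for Car14, -1.07 for Galnt15, -1.04 for Tmeff2, -0.63 for Matn2, -0.54 for Cpne5, -0.51 for Ephb2, -0.49 for Rasa4 and -0.23 for Lars2. Under median centring all mice at the high dose lay below all controls for Grp, and these groups overlapped for each of the other genes. None of the 9 genes passed the threshold of the fit with median centring, whose 534 calls at the high dose were 531 higher and 3 lower (509 higher and 291 lower with loess). In that limma fit 4 of the 9 were lower at an unadjusted p under 0.05, where 6600 of all 19315 genes had such a p in either direction. How many of the 6600 were lower was not counted, so these counts cannot be compared.

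**Figure D4:**
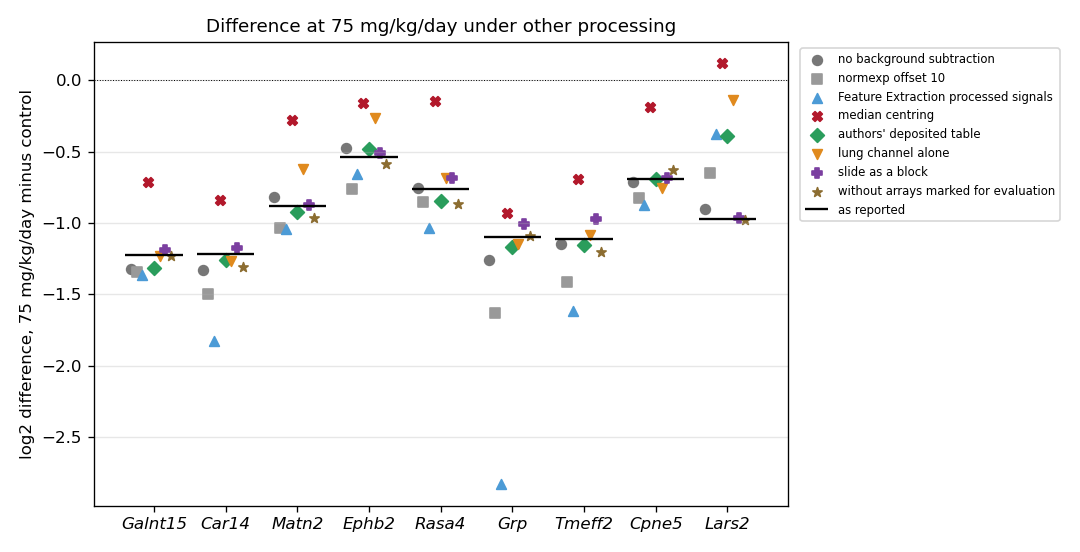
Log2 difference at the high dose (75 mg/kg/day) against control (vertical axis) for each gene (horizontal axis) under 8 other ways of processing (symbols), with the value given in the text as a black line. Lars2 under median centring (0.12) is the only symbol above 0, and Grp with processed signals (-2.83, from spots near background) is the lowest.

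Whether the genes varied together among mice of the same dose was asked with deviations from group means, which the choice of genes did not use. Of 36 pairs, 19 correlated positively, the median r was 0.11 and r ran from -0.57 to 0.58. No pair passed the threshold after adjustment over the 36 pairs (lowest adjusted p 0.182 for Pearson's r and 0.167 for Spearman's rho, permutation within groups, two-sided, n = 19), and 4 pairs by r and 6 by rho had an unadjusted p under 0.05. The strongest by r were Grp with Car14 (r = 0.58, rho = 0.56, permutation p = 0.0278, adjusted p = 0.25, r = 0.58 without the 2 farthest mice), Ephb2 with Cpne5 (r = -0.57, rho = -0.53, permutation p = 0.00965, adjusted p = 0.182, r = -0.51) and Car14 with Lars2 (r = -0.56, rho = -0.50, permutation p = 0.0201, adjusted p = 0.241, r = -0.55). Next by r was Grp with Cpne5 (r = 0.54, permutation p = 0.0101, adjusted p = 0.182, r = 0.67 without the 2 farthest mice). Its rho was 0.63 (permutation p = 0.00465, adjusted p = 0.167). Mice also shared slides, which this test leaves out. With slide means also removed, given with no test, these 4 pairs were at 0.37, -0.60, 0.21 and 0.44. The sign of Car14 with Lars2 thus turned, as it did for 13 of the 36 pairs. The range was then -0.60 to 0.81, with the highest values for Grp with Galnt15 (0.81, and 0.53 before), Galnt15 with Lars2 (0.73, and 0.31 before), Tmeff2 with Cpne5 (0.65, and 0.41 before) and Grp with Lars2 (0.58, and -0.34 before).

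**Figure D5:**
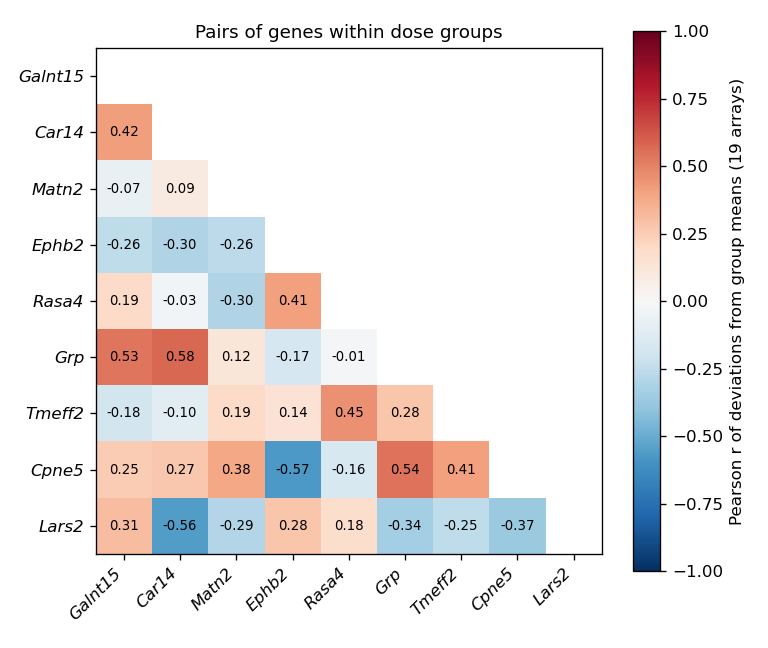
Pearson's r between pairs of the 9 genes (rows and columns) over deviations of 19 mice from their group means, with the colour scale from -1 to 1. Positive and negative cells are both common, and the range is -0.57 to 0.58 before slide means are removed.

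For each gene the 2 genes with the most similar log2 ratios over the 19 arrays were found, as a description that includes the dose groups, slides and the reference that arrays share. For Galnt15 these were Dennd4b (r = 0.87) and Gpihbp1 (r = 0.85), and for Tmeff2 Ednrb (r = 0.89) and Frrs1 (r = 0.86). For Car14 they were Irf8, a transcription factor of myeloid and B cells (r = 0.88), and Btg1 (r = 0.86). For Rasa4 they were Lrmp (r = 0.86) and Cd79b, a chain of the B cell receptor (r = 0.85). For Matn2 they were Igfbp6, which binds insulin-like growth factors (r = 0.88), and Rps20 (r = 0.87). For Cpne5 they were Rps24 (r = 0.87) and Bcl2l11, which promotes apoptosis (r = 0.86). For Grp they were Rpl18 (r = 0.85) and Fancb (r = 0.83), and for Ephb2 Igsf9 (r = 0.86) and Inha (r = 0.83). For Lars2 the highest value was with Pigt, a subunit of the enzyme that attaches GPI anchors (r = 0.97). With group means removed it was 0.95, while the 16 values of the other 8 genes lay between 0.37 and 0.84. The amount loess subtracted at the Lars2 spot ran from -3.15 to 0.11 over the arrays, and its part in this similarity was not tested.

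Markers of 18 cell types of the lung and its surroundings were followed beside the 9 genes, as the mean log2 ratio of each list set against the control mean. At the high dose 3 of 8 B cell genes fell and 0 rose, with Cd79b at -0.62 (adjusted p = 0.0271) and Blnk, a signalling adaptor of B cells, at -0.58 (adjusted p = 0.0189), and their mean ran from -0.57 to -0.18 against -0.26 to 0.28 in controls. Of 6 NK cell genes 1 fell (Klrb1c, -0.52, adjusted p = 0.0191), with means from -0.65 to -0.19 against -0.43 to 0.39 in controls. Of 8 genes of aerocytes, the gas-exchange capillary cells, 2 fell and 2 rose, among them Ednrb (-1.24, adjusted p = 0.0026) and Prx (0.80, adjusted p = 0.0391). Of 7 genes of general capillary cells 1 fell (Gpihbp1, adjusted p = 0.000105), of 12 fibroblast genes 1 fell (Pdgfra, -0.42, adjusted p = 0.0137) and of 6 smooth muscle genes 1 fell (Acta2, -0.62, adjusted p = 0.0146). None of the 15 endothelial genes passed (limma, 5 at an unadjusted p under 0.05), with means from -0.05 to 0.34 at the high dose against -0.15 to 0.15 in controls. Skeletal muscle genes ranged widely, from -1.83 to -0.99 at the high dose against -1.48 to 4.26 in controls, and 0 of 7 passed (limma, 2 at an unadjusted p under 0.05). No gene of the other 10 lists passed. Within dose groups, none of 171 relations between a gene and a list mean (these 18 lists and the neuroendocrine list) passed after adjustment over the 171 (permutation, lowest adjusted p 0.212, n = 19), and 18 had an unadjusted p under 0.05. These relations were added after the data had been seen, and the part of each cell type in the differences from control was not tested.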

How the data were processed

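The deposited files hold spot intensities of both channels from the scanner software Feature Extraction, version 10.7.3.1 per the file headers. The log2 ratios of the authors' deposited table correlated with ratios computed here at 0.995 to 0.998 per array, their column medians were -0.0526 to -0.0333, and the centring is not given in the sources read. Median spot intensities were corrected for background by normexp (offset 50) and normalized by loess within arrays in limma 3.58.1 (R 4.3.3), with control spots at weight 0 and outlier spots (0.29%) left out. This offset makes folds of dim spots smaller. Gene symbols came from RefSeq accessions (GRCm38.p6), which matched 23374 of 41174 probes. A probe was kept if its lung signal was well above background on 4 or more arrays, and the probe with the highest mean lung intensity stood for a gene, which left 19315 genes. The 9 genes have 14 probes, of which 11 passed this filter. All 19 arrays were fitted with a mean per group (lmFit, eBayes), each dose was compared with control, and Benjamini-Hochberg adjusted p-values over all 19315 genes were held to a threshold of 0.05. The fit was tested on simulated data. The genes, lists and tests were chosen with earlier results of these data known. Named besides the 9 genes are up to 2 rises and 2 falls per related family, up to 2 genes per marker list and the 2 most similar genes each, of which 1 is not reported here. Matches of promoters were by symbol. Alternatives covered background correction, normalization, filter, probe rule, slide and left-out mice. The number of arrays and the signal over background limit the precision.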

Additional observations from a re-analysis of the deposited data

Results flagged for a closer look

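Within the 36 groups of mice checked (9 genes in 4 dose groups), 5 held a mouse whose log2 ratio stood apart from the rest of its group, where chance marks about 5% of groups. Tmeff2 in mouse 19 at the high dose was 1.20, against -0.06 to 0.11 in the other 4 mice of the dose. Tmeff2 in control 1 was 0.79, against 1.47 to 1.57 in the other controls. Grp in control 5 was 2.29, against 1.35 to 1.60 in the others. Lars2 in mouse 12 at the middle dose was 2.24, against 1.14 to 1.32 in the others, and Lars2 in mouse 6 at the low dose was 2.06, against 1.49 to 1.63. Mice 6, 12 and 20 and control 1 (Lars2 at 2.60) shared slide 5, and each had the highest Lars2 ratio of its dose group. The loess correction of Lars2 on those arrays was -2.71, -2.54, -1.55 and -3.15, the lowest of each group.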

How the results depend on the processing

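Of 837 recomputed differences of the 9 genes (12 settings and 19 mice left out in turn, at 3 doses), 796 moved by less than the spread between mice, 40 moved by more (15 of them under median centring), and Lars2 at the high dose turned sign under median centring (0.12). Signs also changed among the 796 and 40. At the low dose Cpne5 was negative in 29 of 31 alternatives, Lars2 in 29 and Grp in 2. At the middle dose Lars2 was negative in 30. The cause of these changes was not tested. The median of the 9 genes became -0.054, -0.36 and -0.28 at the low, middle and high dose under median centring, -0.85 at the middle dose with processed signals and -0.76 at the high dose in the lung channel alone. Genes called over the whole array numbered 10, 209 and 800 at the low, middle and high dose and 897 in the trend with dose. At the low dose they numbered 36 with processed signals, 0 under median centring (limma, 539 at an unadjusted p under 0.05) and 3 without the arrays marked for evaluation. At the middle dose they numbered 123 with an offset of 10, 9 under median centring (all higher, against 68.9% higher with loess), 102 in the lung channel alone, 407 with a slide block and 95 without the marked arrays. At the high dose they numbered 504 with an offset of 10, 1451 with processed signals and 1766 with slide as a block, and the trend had 1600 with processed signals and 1739 with slide as a block. Leaving out 1 mouse gave 3 to 13, 75 to 214 and 445 to 977 at the 3 doses and 586 to 1039 in the trend. The count moved by over 1.5 times at the low dose without mouse 7 (3), mouse 8 (3) or control 2 (5), 3 (5) or 4 (4), at the middle dose without mouse 12 (107), 13 (129) or 15 (75) or control 2 (98) or 4 (121), and at the high dose without mouse 16 (445) or 18 (449) or control 2 (529). The trend moved so without mouse 16. Of the 9 genes, 0 passed at the low dose with no background subtraction, processed signals, median centring, the authors' deposited table or the marked arrays left out. In each of these settings 0 of all genes passed as lower. At the middle dose 2 passed without the marked arrays (where 33 of all genes passed as lower), control 3 (37) or 4 (38) or mouse 12 (31) or 15 (22). There 3 passed with an offset of 10 (25 of all genes), no filter on dim probes (56 of 33269) or without control 2 (32) or 5 (59). At the high dose 7 passed with processed signals (478 of all genes), in the lung channel alone (116) or without mouse 16 (140). The Tmeff2 difference at the high dose ran from -1.35 to -1.03 over the left-out mice. The median r over pairs was 0.10 with slide means removed. No paired analysis was possible because each mouse has a number of its own in the labels, and matching by shared slide (within slides and as a block) was used in its place. Dim spots (Grp, Ephb2) and the number of mice limit the precision.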
